A study of Rattus norvegicus with 24 samples.

Results

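Respiratory complex I takes electrons from NADH, passes them to ubiquinone and pumps protons across the inner mitochondrial membrane, and it is the largest enzyme of the respiratory chain. Its genes were taken here as every probe whose gene symbol begins with Nduf, without the Ndufaf assembly factors. This gave 50 probes for 40 genes, out of 26051 genes and unnamed probes on the array when each gene keeps 1 probe, the one with the highest mean over 24 arrays. The label holds for 36 of the 40. Ndufa4 is now counted as a subunit of complex IV, and Ndufa10l1, Ndufa7l and Ndufb4l1 carry the names of close copies of Ndufa10, Ndufa7 and Ndufb4. Ndufb1 and Ndufa4l2 were not analysed here.

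The arrays measured total RNA from the middle of the soleus, a postural calf muscle, of female rats aged about 14 weeks, with 1 one-colour Agilent array per rat and 8 rats per group. Sedentary rats (SED) had ordinary cage activity for 8 weeks. Trained rats (TR) could run on a wheel in the cage for 8 weeks, and detrained rats (DETR) had the wheel for 4 weeks and then lived without it for 4 weeks. All 3 groups then ran for 1 h in a forced wheel at 20 m/min and gave muscle 24 h later, so every sample comes from acutely exercised muscle and no resting muscle was analysed here. The labels name no strain and give no distance that each rat ran of its own accord.

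The soluble arm of complex I has an N module, which binds and oxidises NADH, and a Q module, which reduces ubiquinone. The membrane arm, split below into a part near the soluble arm (proximal) and a part far from it (distal), holds the proton channels. The channel proteins are encoded in mitochondrial DNA, and the Nduf genes are nuclear. Soleus consists mainly of slow oxidative fibres, which are rich in mitochondria, and endurance training is a textbook inducer of mitochondrial biogenesis in muscle. Nuclear respiratory chain genes are known targets of the transcription factor NRF1, whose site is built from the letters TGCGCA.

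The promoters of the members were read for that site and for a few others, to show what the genes share beside their function. RefSeq promoters of assembly GRCr8, from 250 bases before to 50 bases after the gene start, were matched by symbol for 35 of the 40 genes. The shorter form TGCGCA, which reads the same on both strands, lay in 11 of 35 (31.4%), against 8.74% of 21851 promoters of protein-coding genes. The full NRF1 site lay in 1 of 35 (2.86%), that of Ndufa11, against 1.08%. AAGATGGC, the core of the YY1 site, lay on either strand of 8 of 35 (22.9%), against 3.675%, CCGGAAG, an ETS site of the GABP kind, of 7 of 35 (20.0%), against 10.7%, and TATAAA of 3 of 35 (8.57%), against 13.0%. These are matches of letters, and the arrays hold no measurement of binding. Stretches of 60 bases before the start are shown for Ndufa9, Ndufa5, Ndufv2 and Ndufb4, which the rule for named members took and which have TGCGCA there, and for Ndufa11, which was picked for its run of adjoining copies. They are written 5′ to 3′ on the strand of the gene with every TGCGCA in capitals.
Ndufa9: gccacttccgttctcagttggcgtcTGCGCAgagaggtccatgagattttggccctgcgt
Ndufa5: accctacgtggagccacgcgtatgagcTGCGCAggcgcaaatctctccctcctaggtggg
Ndufv2: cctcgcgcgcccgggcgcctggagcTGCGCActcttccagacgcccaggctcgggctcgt
Ndufb4: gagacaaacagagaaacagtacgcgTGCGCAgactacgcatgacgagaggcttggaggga
Ndufa11: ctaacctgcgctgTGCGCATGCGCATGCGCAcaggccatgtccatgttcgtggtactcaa
The stretch of Ndufa9 is chr4:161374207-161374266 on the minus strand, that of Ndufa5 chr4:53971236-53971295 on the minus strand and that of Ndufv2 chr9:113157606-113157665 on the minus strand. The stretch of Ndufb4 is chr11:76569046-76569105 and that of Ndufa11 chr9:1637503-1637562, both on the plus strand.

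All 40 genes passed the filter on dim probes, which asked for 8 or more of 24 arrays well above background and left 20318 features. Of the 40, 39 were well above background on every array. The exception was Ndufa7, a subunit of the Q module, which was so on 8 SED, 8 DETR and 6 TR arrays. Values below are log2 signals relative to the 75th percentile of the same array, and differences between groups are log2 differences with the standard error (SE) from limma with slide as a term. The scale orders arrays for 1 probe and does not order genes. In a piece of whole muscle, fewer cells of a type and less RNA per cell cannot be told apart.

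The arrays lay on 3 slides. Slide 1 carried SED 1 and 2 with DETR 1 to 6, slide 2 carried SED 3 to 6 with TR 1 to 4, and slide 3 carried SED 7 and 8, DETR 7 and 8 and TR 5 to 8. Slide 3 was scanned on another day and was dim, with a 75th percentile of signal of 95.5 to 339, against 562 to 1493 over the other slides. Slow fibre markers such as Myh7 and Tnni1 were all in the filter, 10 of 10. Their mean level per array was 6.54 to 7.49 in SED, 6.72 to 7.53 in DETR and 6.56 to 7.56 in TR. Slow fibre transcripts were thus present in all 3 groups, and no other muscle was analysed here to set beside them.

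The level of the complex I genes differed between slides. Each array was described by the median, over the 40 genes, of the gene's deviation from its own mean over 24 arrays. On slide 1 this ran from 0.10 to 0.32, on slide 2 from -0.003 to 0.41 and on slide 3 from -0.70 to -0.05. Every array of slide 1 thus lay above every array of slide 3, and the 2 SED arrays of slide 3, at -0.23 and -0.14, lay below the 6 SED arrays elsewhere.

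**Figure D1:**
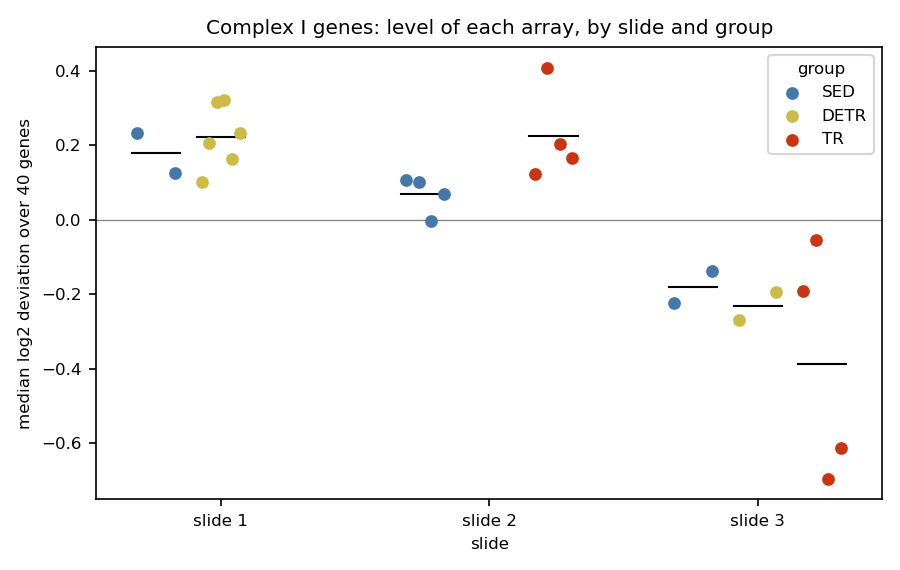
Median log2 deviation of the 40 complex I genes from their own means over 24 arrays (vertical axis), 1 point per array, by slide (horizontal axis) and group (colour), with short black lines at the mean of each group on a slide. All 8 arrays of slide 3 lie below 0, and TR 7 and TR 8, at -0.70 and -0.61, lie lowest.

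The TR group held the extremes of this measure. TR 7 had a median deviation of -0.70 and only 2 of 40 genes above their own mean, and TR 8 had -0.61 and 3 genes. These arrays, with TR 5, also had the smallest shares of probes well above background, 47.9% on TR 7, 50.3% on TR 5 and 53.6% on TR 8. Their signal was also the weakest, with a 75th percentile of 95.5, 133 and 124, in that order. On TR 8 the subunits of complexes III, IV and V deviated by medians of -0.70, -0.59 and -0.66, close to complex I. The mitochondrially encoded complex I genes deviated by 0.40 on TR 8. They were positive on every array of slide 3, from 0.28 (DETR 7) to 0.86 (TR 5), with 0.76 and 0.83 on its SED arrays. On slides 1 and 2 these genes were negative on every array but TR 2 (0.18). On TR 5 the complex I genes deviated by a median of -0.19 and the complex III, IV and V genes by -0.08, 0.04 and 0.01. Over all features TR 7 and TR 8 deviated by medians of 0.26 and 0.19. Whether the low values of these arrays come from signal or from the muscle was not tested.

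**Figure D2:**
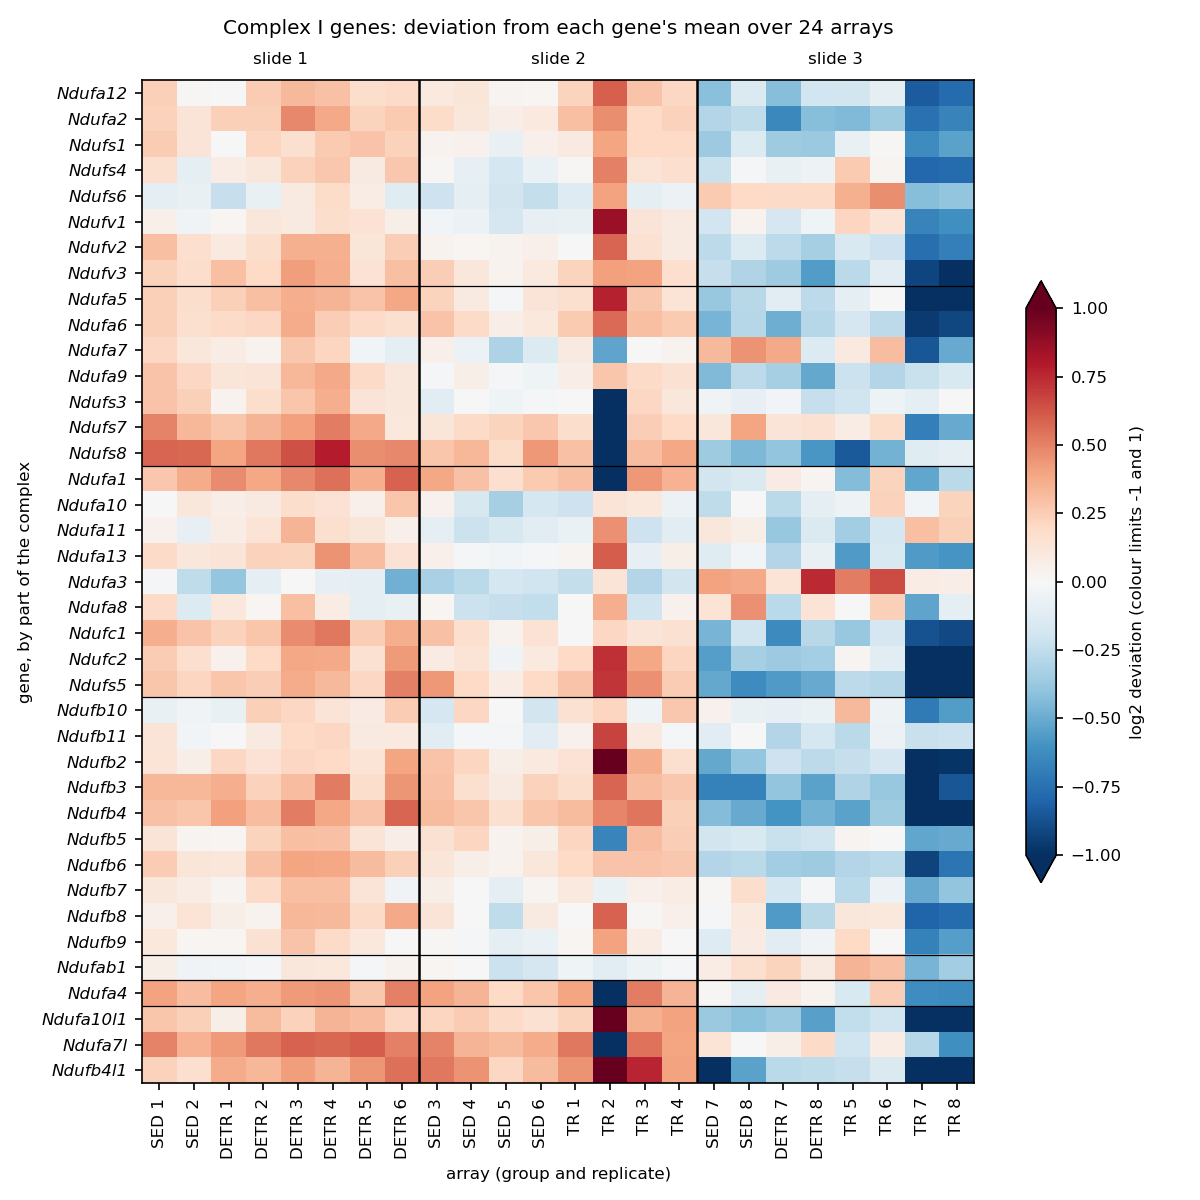
Deviation of 39 complex I genes (rows, by part of the complex) from their own means over 24 arrays, for each array (columns, by slide and group), on a log2 colour scale limited to -1 and 1. Most genes are red on slides 1 and 2 and blue on slide 3, deepest on TR 7 and TR 8, and Ndufa1, Ndufa4, Ndufa7l, Ndufs3, Ndufs7 and Ndufs8 reach the lowest colour on TR 2.

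Array TR 2 stood apart in another way. Its median deviation of 0.41 was the highest of the 24 arrays, and yet 5 genes lay over 4-fold below their own median there, namely Ndufa1, Ndufa4, Ndufa7l, Ndufs7 and Ndufs8. Repeated spots of 1 probe disagreed on this array. The spots of Ndufa4 read 7.42 and -4.00, a range of 11.4, where on the other 23 arrays they never differed by more than 0.39. The dimmest and brightest spots were likewise over 4-fold apart for Ndufa1, Ndufs7, Ndufs8, Ndufs3 and Ndufb5, and in each case the brightest spot was within or above the range of the other 7 TR arrays. Of all features with several spots, 10.7% were over 4-fold apart on TR 2, against 0.40% to 1.78% on the other TR arrays. Among SED and DETR arrays the share reached 4.37% (SED 1) and 4.01% (DETR 4). The gene Ndufa7l has 1 spot per array, which read -3.36 there and 2.44 to 3.59 on the remaining TR arrays. The values of the members and modules that lean on this array are given without it as well. The companion and marker lists below are given with all arrays only.

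**Figure D3:**
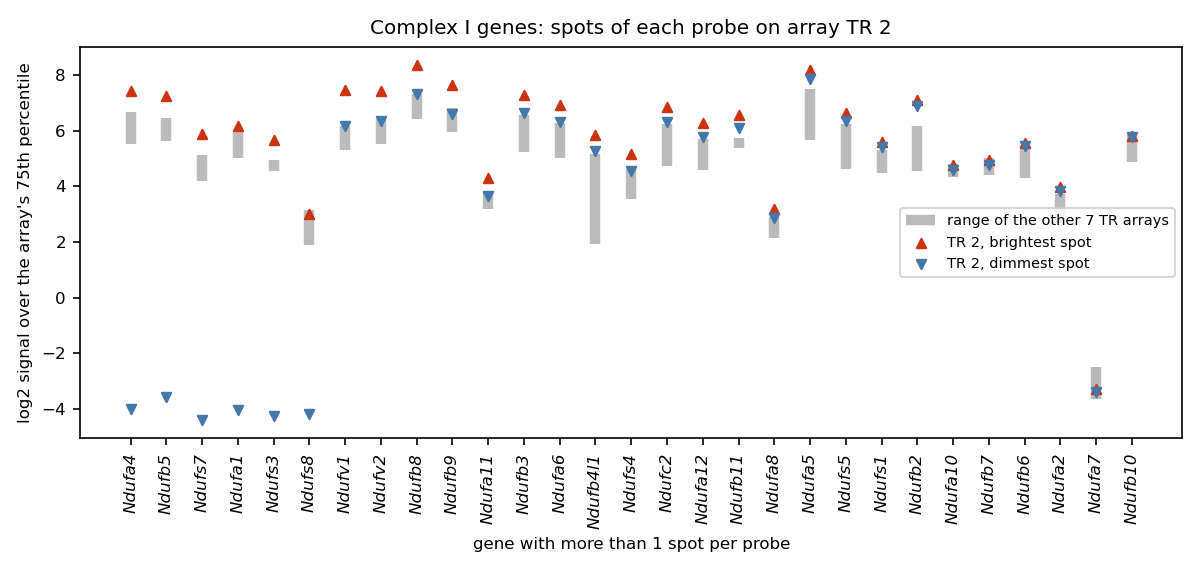
Brightest (triangle up) and dimmest (triangle down) spot of the complex I probes drawn that have several spots, on array TR 2, as log2 signal over the 75th percentile (vertical axis), with the range of the other 7 TR arrays as a grey bar. For 6 genes at the left the dimmest spot lies near -4 and the brightest within or above the grey bar.

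No complex I gene passed the test in any of the 3 comparisons (limma, Benjamini-Hochberg adjusted p under 0.05). This was 0 of 40 members each time, beside 0 of 20318 features (0%). At an unadjusted p under 0.05 the members numbered 0 of 40 for DETR minus SED, beside 3.94% of all features, 2 of 40 for TR minus SED, beside 10.4%, and 1 of 40 for TR minus DETR, beside 9.91%. In values with slide left in, no member had groups that did not overlap, beside 0.064%, 0.0246% and 0.123% of all features. All 3 groups have arrays on slide 3, where most members read low, so overlap says little about differences within a slide. The same limit holds for the group ranges of single genes below. The members' shares thus lay at or below those of all features. The 3 comparisons share their groups, so their values stand side by side below and are not independent.

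The median log2 difference over the 40 genes was 0.04 for DETR minus SED, with 27 genes higher and 13 lower, 0.002 for TR minus SED, with 20 higher and 20 lower, and -0.09 for TR minus DETR, with 9 higher and 31 lower. Without TR 2, TR minus SED had a median of -0.05 with 14 of 40 higher, and TR minus DETR a median of -0.11. DETR minus SED then had a median of 0.07 with 28 of 40 higher. Of all features without TR 2, 57.8% were higher for DETR minus SED, 49.5% for TR minus SED and 44.6% for TR minus DETR. With all arrays, the medians over all 20318 features were 0.03, 0.01 and -0.03, with 58.0%, 52.8% and 45.5% higher. Single members ran from -0.22 to 0.54, from -1.02 to 0.20 and from -0.88 to 0.21. Without TR 2 they ran from -0.07 to 0.50, from -0.23 to 0.18 and from -0.57 to 0.19. The 36 genes without Ndufa4 and the close copies gave medians of 0.04, 0.01 and -0.07.

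The width of the intervals shows what the arrays could bound. The 95% interval lay inside a 1.2-fold change either way for 7 of 40 genes in DETR minus SED, 6 in TR minus SED and 1 in TR minus DETR. It lay inside a 1.5-fold change either way for 32 of 40 genes in DETR minus SED, 34 in TR minus SED and 30 in TR minus DETR, and inside a 2-fold change for 34, 35 and 34. The widest intervals for TR minus SED were those of Ndufa1, Ndufa4, Ndufa7l, Ndufs7 and Ndufs8, which read over 4-fold low on TR 2, and that of Ndufa1 ran from -1.67 to 0.35. The residual SD of a member was 0.24 at the median, against 0.33 over all features, and ran from 0.09 for Ndufa9 to 1.41 for Ndufa7l.

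**Figure D4:**
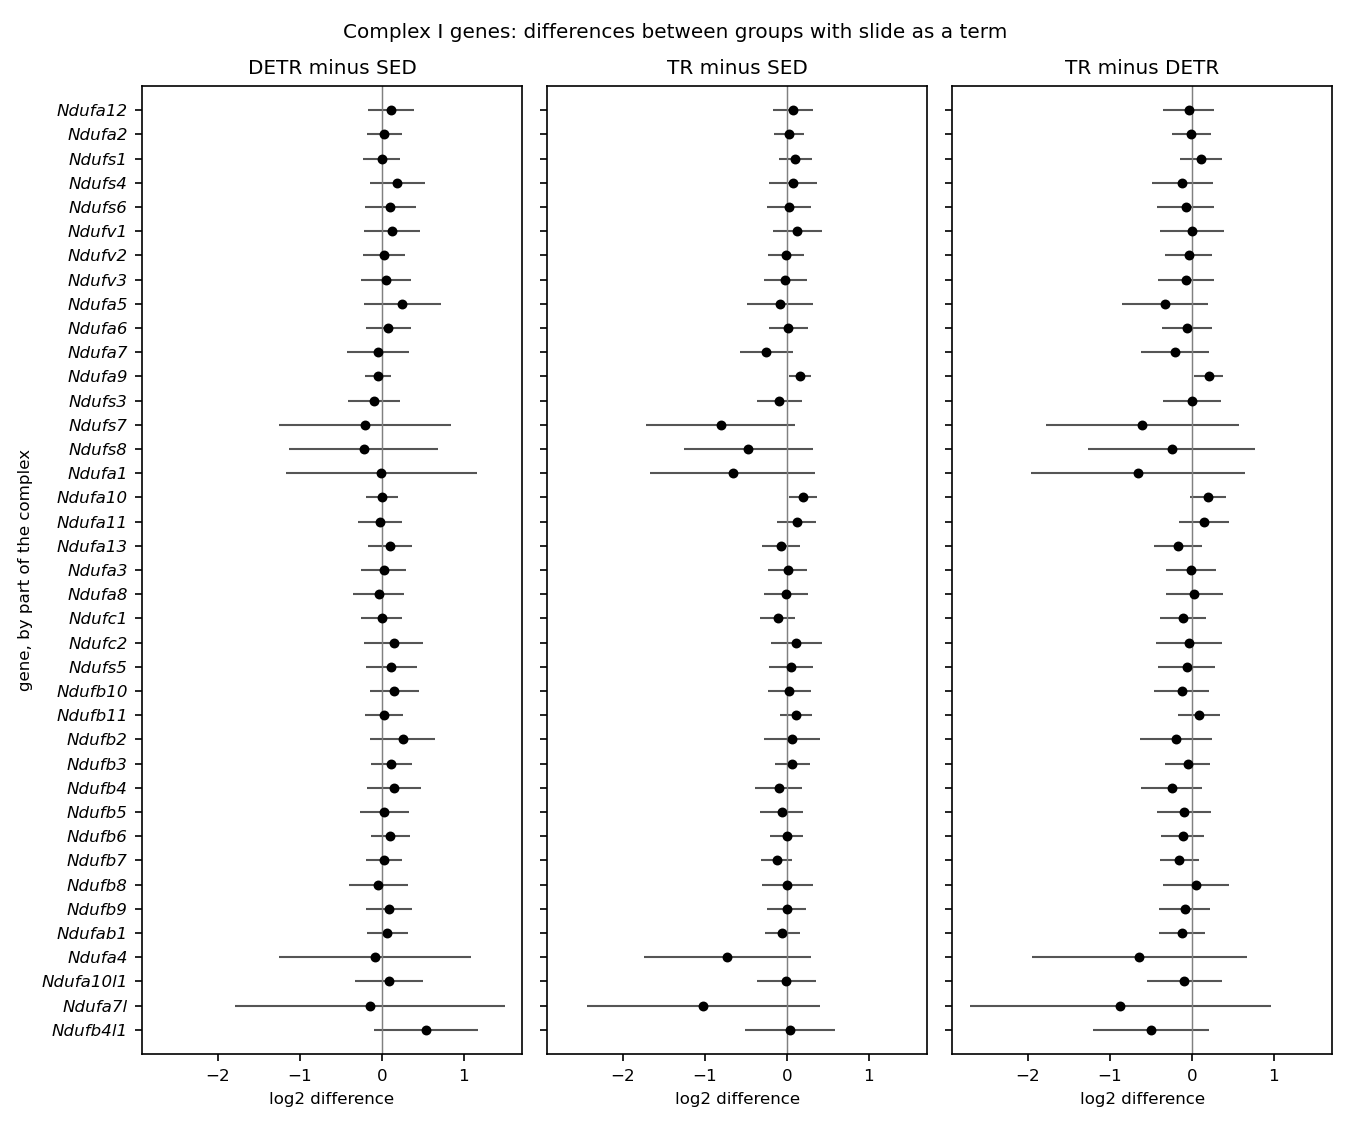
Log2 difference (horizontal axis) of 39 complex I genes (vertical axis, by part of the complex) in the 3 comparisons, with slide as a term and 8 arrays per group. Points are estimates and lines 95% intervals; all cross 0 but those of Ndufa9 and Ndufa10 in TR minus SED and of Ndufa9 in TR minus DETR, and the widest belong to the 5 genes that read over 4-fold low on TR 2.

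The N module carries the flavin and the iron-sulfur clusters that take electrons from NADH. Its 8 genes had median differences of 0.08 for DETR minus SED (7 higher), 0.05 for TR minus SED (6 higher) and -0.04 for TR minus DETR (2 higher). Without TR 2 the latter medians were -0.01 and -0.09. Ndufv1, the flavin- and NADH-binding subunit, had values of 5.76, 5.90 and 6.00 (lowest, median, highest) in SED, 5.78, 6.02 and 6.13 in DETR and 5.28, 6.06 and 6.81 in TR. TR thus spanned both other groups, with TR 7 lowest and TR 2 highest. Its difference from SED was 0.13 ± 0.17 in DETR and 0.13 ± 0.14 in TR, and 0.01 in TR without TR 2.

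Ndufv2, an iron-sulfur subunit beside it, had 6.00, 6.30 and 6.57 in SED, 5.94, 6.42 and 6.62 in DETR and 5.51, 6.19 and 6.85 in TR. Again the lowest and highest values were those of TR 7 and TR 2, and the groups overlapped. Its differences from SED were 0.03 ± 0.13 in DETR and -0.01 ± 0.11 in TR, and -0.09 in TR without TR 2. Ndufs1, the largest subunit of the soluble arm, had 4.74, 5.14 and 5.36 in SED, 4.73, 5.29 and 5.39 in DETR and 4.47, 5.15 and 5.50 in TR, and differed from SED by -0.004 ± 0.11 and 0.10 ± 0.10, and by 0.06 in TR without TR 2. The group medians of Ndufs1 lay close together. Ndufs4, an accessory subunit whose loss is a known cause of Leigh syndrome, had 4.12, 4.27 and 4.50 in SED, 4.27, 4.45 and 4.61 in DETR and 3.56, 4.43 and 4.85 in TR. It was the member of this module with the largest difference between DETR and SED, 0.19 ± 0.16, which did not pass. A second probe of Ndufs4 gave -0.09 ± 0.11, so its probes differed in sign.

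The 8 genes of the Q module had median differences of -0.05 for DETR minus SED (3 higher), -0.09 for TR minus SED (3 higher) and -0.15 for TR minus DETR (2 higher). Without TR 2 the medians of TR were -0.04 against SED and -0.13 against DETR.

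Ndufs7, which holds the last iron-sulfur cluster before ubiquinone, had 4.98, 5.12 and 5.37 in SED, 4.97, 5.18 and 5.38 in DETR and 0.74, 5.00 and 5.12 in TR. The lowest TR value is that of TR 2, and the other TR arrays read 4.19 to 5.12, partly below the lowest SED array. The difference between TR and SED was -0.80 ± 0.44 (adjusted p = 0.528, limma) and -0.23 without TR 2. Ndufs8, another iron-sulfur subunit, had 2.29, 3.05 and 3.33 in SED, 2.16, 3.22 and 3.53 in DETR and -0.59, 2.63 and 3.13 in TR, and its difference between TR and SED went from -0.47 ± 0.38 to 0.03 without TR 2. Ndufs3, a structural core subunit, had 4.64, 4.71 and 5.03 in SED, 4.51, 4.86 and 5.10 in DETR and 3.68, 4.71 and 4.95 in TR, and its difference went from -0.09 ± 0.13 to 0.06. For these 3 core subunits the sign or most of the size of the difference rested on TR 2.

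Ndufa9, an accessory subunit at the junction of the soluble and membrane arms, was the member with the smallest residual SD. It had 3.89, 4.32 and 4.62 in SED, 3.82, 4.46 and 4.71 in DETR and 4.05, 4.30 and 4.61 in TR. Within slide 2 the 4 TR arrays read 4.40 to 4.61 and the 4 SED arrays 4.29 to 4.39, and within slide 3 TR read 4.05 to 4.19 and SED 3.89 and 4.08. The difference between TR and SED was 0.16 ± 0.07 (1.12-fold; unadjusted p = 0.026, adjusted p = 0.431, limma), 0.18 within slide 2, 0.13 within slide 3 and 0.14 without TR 2. Against DETR it was 0.21 ± 0.09 (adjusted p = 0.476), and between DETR and SED -0.04 ± 0.08.

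Ndufa5, an accessory subunit of this module, had 6.85, 7.34 and 7.47 in SED, 6.97, 7.52 and 7.62 in DETR and 5.64, 7.30 and 8.00 in TR. DETR minus SED was 0.25 ± 0.23 and TR minus DETR -0.33 ± 0.25, and -0.40 without TR 2. The values ran from TR 7 to TR 2 within the TR group, a wider range than that between groups. Ndufa7, the dim member, had -3.12, -2.72 and -2.35 in SED, -2.94, -2.75 and -2.42 in DETR and -3.66, -2.79 and -2.50 in TR, and differed between TR and SED by -0.25 ± 0.16. After normexp background correction that difference was 0.20, so its direction depended on the treatment of background.

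The membrane arm genes near the soluble arm showed medians of 0.01 for DETR minus SED (5 of 9 higher), 0.01 for TR minus SED (5 of 9 higher) and -0.04 for TR minus DETR (3 of 9 higher). With TR 2 left out, TR gave -0.01 and -0.09. Ndufa10, an accessory subunit with a kinase-like fold, had 4.22, 4.47 and 4.66 in SED, 4.28, 4.63 and 4.82 in DETR and 4.34, 4.59 and 4.78 in TR. The 3 groups overlapped over most of their range. TR minus SED was 0.20 ± 0.08 (1.15-fold; unadjusted p = 0.024, adjusted p = 0.430, limma), 0.15 within slide 2, 0.22 within slide 3 and 0.18 without TR 2. TR minus DETR was 0.19 ± 0.11 and DETR minus SED 0.01 ± 0.10. Ndufa9 and Ndufa10 were the members at an unadjusted p under 0.05 for TR minus SED, and with Ndufb3 they were the 3 genes that lay higher in TR on both slides. As 10.4% of all features had such a p, neither stands out from the background.

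Ndufa1, a small anchor subunit encoded on the X chromosome, had 5.34, 5.79 and 5.91 in SED, 5.55, 5.95 and 6.11 in DETR and 1.06, 5.50 and 5.95 in TR. The lowest value is that of TR 2, where the 2 spots of the probe read 6.15 and -4.04. TR minus SED was -0.66 ± 0.49, and -0.01 without that array.

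The distal membrane arm, whose accessory subunits are the Ndufb group, had medians of 0.10 for DETR minus SED (9 of 10 higher), 0.002 for TR minus SED (5 of 10 higher) and -0.10 for TR minus DETR (2 of 10 higher). With TR 2 left out, the TR medians were -0.04 and -0.13. No gene of this arm passed, and the 9 of 10 did not hold within slide 3, where 2 of 10 were higher in DETR. Ndufb2, a small membrane subunit, had 5.29, 5.88 and 6.08 in SED, 5.54, 5.97 and 6.20 in DETR and 4.55, 5.79 and 6.99 in TR, and DETR minus SED was 0.25 ± 0.19. Ndufb10, a subunit of the intermembrane side, had 5.40, 5.53 and 5.79 in SED, 5.50, 5.69 and 5.83 in DETR and 4.88, 5.64 and 5.90 in TR, and DETR minus SED was 0.15 ± 0.15. In both, DETR lay inside or near the range of SED, and TR reached below that range through TR 7 and TR 8. TR also reached above it, to 6.99 for Ndufb2 on TR 2 and 5.90 for Ndufb10 on TR 5.

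Ndufb4 had 5.62, 6.40 and 6.44 in SED, 5.52, 6.47 and 6.71 in DETR and 4.68, 6.07 and 6.65 in TR, and TR minus DETR was -0.25 ± 0.18, and -0.27 without TR 2. Ndufb7, a subunit of the intermembrane side, had 4.81, 4.95 and 5.09 in SED, 4.73, 4.99 and 5.21 in DETR and 4.40, 4.85 and 5.01 in TR. TR minus DETR was -0.15 ± 0.12 for Ndufb7. The lowest TR value of both genes was that of TR 7, and the groups overlapped.

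Of the genes that are not plain subunits, Ndufab1, the mitochondrial acyl carrier protein, which sits at more than 1 place in the complex and also serves fatty acid synthesis, had 5.44, 5.65 and 5.81 in SED, 5.62, 5.71 and 5.87 in DETR and 5.18, 5.60 and 5.99 in TR. Its differences from SED were 0.07 ± 0.12 in DETR and -0.06 ± 0.10 in TR. A dimmer second probe of Ndufab1 gave 0.26 ± 0.18 in TR, so the probes differed in sign. Ndufa4 had 6.07, 6.45 and 6.56 in SED, 6.20, 6.53 and 6.66 in DETR and 1.71, 6.21 and 6.67 in TR, and TR minus SED went from -0.73 ± 0.49 to -0.08 without TR 2.

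The close copies are uncertain, since their probes may also catch the gene they resemble. The probe of Ndufa10l1 also matches a transcript of Ndufa10. Its TR minus SED was -0.005 ± 0.17, and that of Ndufa10 itself 0.20 ± 0.08. A second probe of Ndufa10l1 gave 0.07 ± 0.08 for TR minus SED. For DETR minus SED it gave -0.06 ± 0.09, against 0.09 ± 0.20 from the first, so the probes differed in sign. Ndufb4l1 had 2.90, 4.61 and 4.92 in SED, 4.12, 4.74 and 4.94 in DETR and 1.91, 4.52 and 5.55 in TR, and DETR minus SED, 0.54 ± 0.31, was the largest positive difference of any member in that comparison and did not pass (adjusted p = 1.0, limma). It was lowest in SED on SED 7, on the dim slide, and its 2 spots differed by up to 2.16 on arrays other than TR 2. Ndufa7l had 3.05, 3.40 and 3.55 in SED, 3.11, 3.57 and 3.66 in DETR and -3.36, 2.99 and 3.59 in TR, and TR minus SED went from -1.02 ± 0.69 to -0.10 without TR 2.

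The difference between TR and SED ran opposite ways on the 2 slides that hold both groups. On slide 2 the median over the 40 genes was 0.18, with 32 of 40 higher in TR, beside 0.03 and 56.2% over all features. On slide 3 it was -0.20, with 4 of 40 higher, beside -0.03 and 46.2% over all features. Single genes gave this pattern in 29 of 40 cases, higher in TR on slide 2 and lower on slide 3. Another 3 were higher on both slides (Ndufa9, Ndufa10 and Ndufb3), 7 lower on both (among them Ndufa1, Ndufa4, Ndufa7l, Ndufs3 and Ndufs7, whose probes read low on TR 2) and 1, Ndufs8, lower on slide 2 and higher on slide 3. The N module was higher in TR for 8 of 8 genes on slide 2 and 0 of 8 on slide 3. Slide 3 compares 4 TR arrays with 2 SED arrays. By the median deviation of the members, TR 7 and TR 8 lay below both SED arrays there, TR 5 (-0.19) lay between them (-0.23 and -0.14) and TR 6 (-0.05) lay above both.

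**Figure D5:**
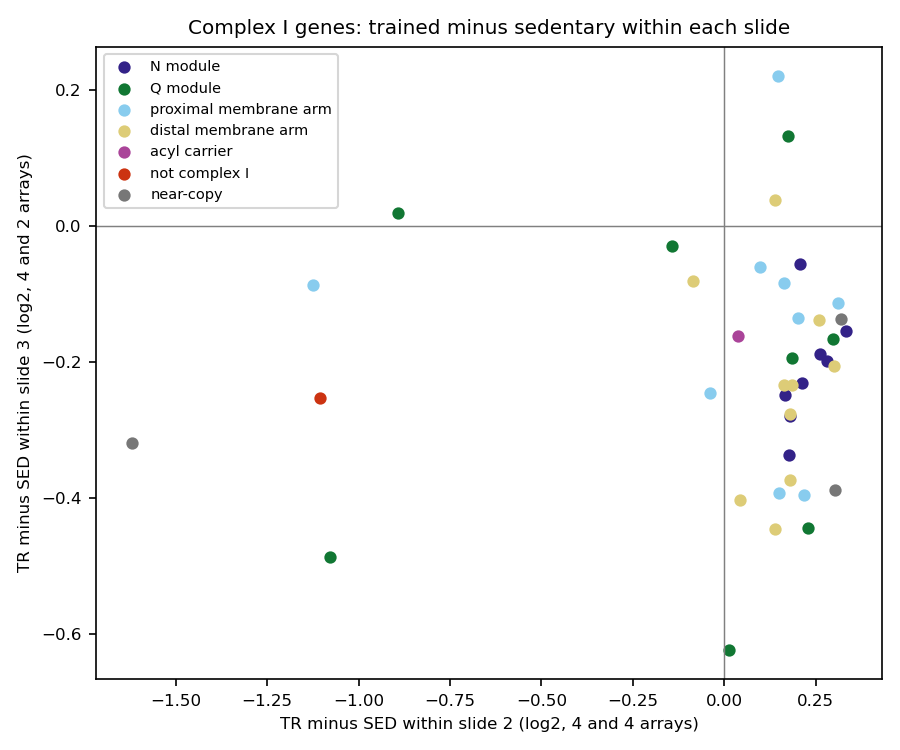
Log2 difference between TR and SED of each complex I gene within slide 2 (horizontal axis, 4 and 4 arrays) against that within slide 3 (vertical axis, 4 TR and 2 SED arrays), coloured by part of the complex. Of 40 points, 29 lie at lower right, higher in TR on slide 2 and lower on slide 3, and the 5 points at far left are the genes that read over 4-fold low on TR 2.

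The slide dependence was tested as an interaction over all features. The difference between slides 2 and 3 in TR minus SED had a median of 0.42 over the members, with 32 of 40 above 0, against 0.04 over all features. No member passed (0 of 40, beside 0 of 20318 features, 0%; limma, smallest adjusted p = 0.751), and 5 of 40 had an unadjusted p under 0.05, beside 6.46% of all features. They were Ndufa2 (0.46 ± 0.17), Ndufb7 (0.45 ± 0.17), Ndufa13 (0.54 ± 0.22), Ndufa8 (0.61 ± 0.25) and Ndufb6 (0.46 ± 0.19), chosen here by that p. After quantile normalization the median was 0.31, against 0.10 over all features, and 3 of 40 members had such a p, about the share of 7.48% over all features. The same interaction for DETR minus SED, between slides 1 and 3, had a median of 0.10, equal to that over all features, with 0 of 40 members passing and 0 of 40 at an unadjusted p under 0.05, beside 5.55%.

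The weight of the dim arrays was measured by leaving them out, a choice made after seeing the data, and one that takes arrays from the TR group alone. TR 7 and TR 8 are also the lowest arrays on the complex I measure itself, so higher TR values without them follow from the choice and support no direction. Without TR 5, TR 7 and TR 8 the median of TR minus SED was 0.15, against 0.002 with all arrays, with 33 of 40 higher and 17 of 40 at an unadjusted p under 0.05, all higher, beside 9.07% of all features. No member passed there either, beside 3 of 20318 features (smallest adjusted p of a member = 0.337, limma). Without TR 2 as well, 37 of 40 were higher, with a median of 0.12 and 14 members at that p, beside 9.22%. On slides 1 and 2 alone 11 members had such a p, beside 8.38%, and without TR 2 only 1, beside 7.76%, with a median of 0.10 and 38 of 40 higher. On slides 1 and 2 the count thus rested on TR 2.

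The comparison of DETR with SED also differed by slide. Its median was 0.07 on slide 1 (32 of 40 higher) and -0.06 on slide 3 (13 of 40 higher). The medians over all features were close to these, 0.07 (66.0% higher) and -0.03 (46.3% higher). After quantile normalization the members had medians of -0.002 on slide 1 (19 of 40 higher) and -0.04 on slide 3 (16 of 40 higher). TR and DETR share slide 3 alone, where TR minus DETR had a median of -0.18 with 8 of 40 higher, beside 50.3% of all features. Elsewhere that comparison runs through the SED arrays. Without TR 5, TR 7 and TR 8 its median was 0.14 with 33 of 40 higher, beside 40.5% of all features. The limit on that choice given above holds here too.

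Other genes of the respiratory chain were read in the same fits, from lists chosen with earlier results of these data known, and 0 of 85 genes passed in any comparison (limma). At an unadjusted p under 0.05 there were 1 for DETR minus SED, 7 for TR minus SED and 5 for TR minus DETR, beside the 3.94%, 10.4% and 9.91% of all features. Complex I also needs its mitochondrially encoded subunits, of which 6 of 7 were measured. Their median differences were 0.15 for DETR minus SED, -0.03 for TR minus SED and -0.05 for TR minus DETR. Mt-nd6, the one encoded on the light strand, differed most, by 0.68 ± 0.21 for TR minus SED (unadjusted p = 0.0038, adjusted p = 0.300, limma) and 0.33 ± 0.24 for DETR minus SED. The other 5 had an unadjusted p over 0.05 in all comparisons.

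The assembly factors, which build the complex and do not stay in it, were measured for 16 of 18, with medians of 0.07, 0.04 and -0.05 in the same order. Nubpl, which delivers iron-sulfur clusters to complex I, differed by -0.27 ± 0.13 for TR minus SED (adjusted p = 0.471, limma), and Tmem261, a factor of the distal membrane arm, by -0.27 ± 0.11 (adjusted p = 0.416). Ndufaf5, a factor of the early Q module, differed by 0.13 ± 0.08 for DETR minus SED. None of these passed.

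The other complexes lay close to complex I. For DETR minus SED their medians were 0.02 for complex II, 0.05 for III, 0.08 for IV and 0.10 for V, and for TR minus SED 0.03, 0.04, 0.005 and 0.02. For TR minus DETR they were 0.01, -0.06, -0.17 and -0.07, with 10 of 11 complex IV genes lower and 31 of 40 complex I genes lower. Regulators of mitochondrial biogenesis had medians of 0.07, -0.04 and -0.04. Nrf1 itself, the factor whose site was read in the promoters, differed by -0.09 ± 0.08 for TR minus SED, and the coactivator Pprc1 by -0.18 ± 0.11.

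Enzymes that deliver electrons to the chain were read beside complex I. Of 12 genes for NADH-making dehydrogenases and the electron transfer flavoprotein route to ubiquinone, 11 were higher in TR than in SED (median 0.06), 11 higher in TR than in DETR (median 0.13) and 4 higher in DETR than in SED (median -0.08). Ogdh, of the citric acid cycle, differed between TR and SED by 0.48 ± 0.21, Etfa, a subunit of the flavoprotein, by 0.22 ± 0.09, and the enzyme Etfdh, which passes its electrons to ubiquinone, between TR and DETR by 0.42 ± 0.15 and between DETR and SED by -0.30 ± 0.14. None passed (adjusted p = 0.444, 0.444, 0.424 and 1.0, in that order, limma).

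Markers of fibre and cell types were read beside these values. The 12 fast fibre markers had a median of -0.85 for TR minus SED with 11 lower, among them Myh1 (-2.71 ± 1.22). Their mean level per array ran from -0.09 to 5.07 in SED, 2.67 to 4.90 in DETR and 0.86 to 4.47 in TR. Macrophage markers had a median of 0.45 with 8 of 10 higher, including Mrc1 (0.75 ± 0.22), and ran from -1.26 to -0.89 in SED, -1.77 to -0.81 in DETR and -1.58 to -0.17 in TR. Adipocyte markers, 8 of 9 in the filter and all but Lep, had a median of 0.62 with 7 of 8 higher, and ran from -2.74 to -1.48, -2.75 to -1.45 and -2.15 to -1.03. The 7 tendon markers were lower in TR, with a median of -0.95, and ran from -1.86 to 1.40, -1.98 to 0.64 and -2.36 to 0.72. Of 71 markers of 8 types, 0 passed in any comparison (limma), and 3, 17 and 13 had an unadjusted p under 0.05 for DETR minus SED, TR minus SED and TR minus DETR, beside 3.94%, 10.4% and 9.91% of all features. The part of fibre type or cell mixture in the complex I values was not tested.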

How the data were processed

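The scanner files hold spot intensity from Agilent Feature Extraction, version 11.5.1.1 per the file headers and 11.5.11.1 per the submitters' processing notes, background-subtracted per the file headers. A second deposited table holds log2 values whose columns share 1 distribution (median 6.26); its maker's steps are not given in the sources used. Of 62976 spots per array, 4259 control spots were left out and no spot was saturated. Log2 processed signal minus the array's 75th percentile was used, with spots of a probe averaged. Members took their symbols from the deposited table; 7 members had no accession match in the RefSeq table (GRCr8) and kept the symbol of the file.

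Group and slide, read from the array identifiers, were terms of a limma 3.58.1 fit (R 4.3.3) of all 24 arrays, which had 19 residual and 2.87 prior degrees of freedom. Benjamini-Hochberg adjustment ran over 20318 features. Each array is 1 rat, so p-values rest on the spread between rats, and precision is limited by how many arrays there are. Values are given in full for the core subunits encoded in the nucleus, the 5 smallest p per comparison, Ndufa4, Ndufab1 and the 3 largest residual SDs; other genes come from the 3 smallest p of each companion list, and any further name was chosen after its values were seen. The members and lists were chosen with earlier results of these data known. Normexp, planned on mean spot signals, was run on median spot signals, which are what the files hold. The replicate numbers did not pair the arrays: after group and slide were removed, 1 of 24 same-numbered pairs of arrays had a correlation over 0.1 (range -0.38 to 0.28). The values of 1 member are not reported here; it stays in the counts and medians.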

Additional observations from a re-analysis of the deposited data

Results flagged for a closer look

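In 66 groups of 8 arrays (21 named members and the median deviation of the members, in each group), the highest or lowest array was compared with the others by its gap to the nearest array over the whole range, a rule by which chance picks about 1 in 20 groups. The count picked here cannot be set against that rate, because the groups were neither chosen nor measured independently. Ndufa1 was named only for its large residual SD and Ndufa7l partly so, and an outlying array raises that SD. All members were also read on the same arrays. The rule picked 6 groups, all of them through values of array TR 2. Ndufa1 read 1.06 there and 5.00 to 5.95 on the other TR arrays. Ndufa4 read 1.71 against 5.52 to 6.67, Ndufs7 0.74 against 4.19 to 5.12, and Ndufs8 -0.59 against 1.90 to 3.13. Ndufs3 read 3.68 against 4.54 to 4.95, and Ndufa7l -3.36 against 2.44 to 3.59. For all but Ndufa7l, which has 1 spot, a spot of the same probe on TR 2 read within or above the range of the other TR arrays.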

How the results depend on the processing

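No member passed in any setting tried, planned or added, and the smallest adjusted p of any member was 0.278 for DETR minus SED (Ndufb4l1, array weights), 0.180 for TR minus SED (Ndufa7, replicate block) and 0.068 for TR minus DETR (Ndufb4l1, replicate block). Few of all 20318 features passed either. In the same order of comparisons, array weights called 106, 79 and 133 of them and the replicate block 0, 4 and 35. No other setting, the 24 fits without 1 array included, called more than 14 features. The median over the members moved by more than the spread between arrays for TR minus SED within slide 2 alone (0.18), within slide 3 alone (-0.20) and without slide 3 (0.18), and for TR minus DETR with the replicate block (-0.30), without slide 3 (0.095), without TR 5, TR 7 and TR 8 (0.14) and without these and TR 2 (0.10). With each array left out in turn, the median ran from 0.02 (without TR 8) to 0.08 (without SED 1) for DETR minus SED, from -0.05 (without TR 2) to 0.07 (without TR 7) for TR minus SED and from -0.15 (without TR 6) to 0.005 (without TR 7) for TR minus DETR, with 0 members called in all 24 fits. The replicate block gave medians of 0.11 and -0.15 for DETR and TR minus SED. The numbers do not pair the arrays. Without the slide term the medians were 0.08 (39 of 40 higher), -0.15 (8 higher) and -0.20 (1 higher), beside 58.3%, 56.1% and 51.0% of all features higher. After normexp the medians were 0.05, -0.08 and -0.17. After quantile normalization they were 0.01, -0.01 and -0.04, and with the authors' deposited values 0.02, -0.02 and -0.04. Array weights gave 0.05, 0.09 and 0.05. Normexp moved the median of all features by more than 0.1, to 0.15 for TR minus SED (72.6% of features higher, against 52.8%) and 0.13 for TR minus DETR. Of the values of named members under the alternatives, the sign changed in 121 of 965, 122 of 965 and 105 of 923; the cause was not tested. The signal was weakest on slide 3, and its part in these changes was not tested.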
